A study of Mus musculus with 60 samples.

Results

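The genes described here are 10 members of the NF-kB system: the transcription factor subunits Nfkb1, Nfkb2, Rela and Relb, the IkB family members Nfkbia, Nfkbiz and Bcl3, the feedback enzymes Tnfaip3 and Birc3, and the mRNA decay factor Zfp36. They were taken by symbol from the annotation of the array's probe sets, and where a gene had several, the brightest on average was read. Of the 10 listed genes, 9 had such a probe set, out of 18194 genes with one, and Nfkb1 was not analysed here. All 9 stood above the 40th percentile of the array on at least 2 arrays, as did 14513 genes in all, and the tests were run on those 14513. Levels are given as log2 intensity as deposited and differences as log2 differences, on which 1 is 2-fold.

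Primary hepatocytes of male C57BL/6N mice aged 8 to 12 weeks, from 1 animal or a pool of up to 3 per experiment, were plated on collagen I and held without serum for 24 h. They then received 40 ng/ml recombinant human IL-6 plus 40 ng/ml recombinant mouse HGF, IL-6 alone, HGF alone, or neither, and RNA was taken at 0.5, 2 and 4 h and then at 8, 16, 24 and 32 h. All arms, unstimulated cells included, were kept with 100 nM dexamethasone, a glucocorticoid, before stimulation. Each arm has 2 arrays per hour, and 4 further unstimulated arrays mark 0 h, 60 in all; whether paired arrays came from separate animals is not stated, so p-values measure the spread between these samples, which may be technical.

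NF-kB dimers rest in the cytoplasm bound to IkB proteins until receptors such as those for TNF and IL-1 activate the IKK kinases, which mark the IkB protein for destruction. Freed dimers enter the nucleus and switch on target genes, among them their own brakes: Nfkbia (IkB alpha) takes the dimers back out, and Tnfaip3 (A20) edits the ubiquitin chains on which the signal depends. In the liver this system is known for protecting hepatocytes from death by TNF. IL-6 itself acts through the receptor chain gp130 and the factor STAT3, and HGF through the receptor tyrosine kinase MET.

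Of 6 hepatocyte markers, Alb, Apoa1 and Ttr lay above the 99.9 percentile of the array (medians over all arrays), Cyp2e1 at the 96.4 percentile, Cps1 just below it and Tat at the 76.2 percentile. All 6 were lower with the combination (4 by 2-fold) and with IL-6 (0 by 2-fold), HGF lowered 4 (2 by 2-fold) and raised Cyp2e1 (0.35), and unstimulated culture lowered 6 against 0 h (4 by 2-fold). Markers of other liver cells were also measured, with the mean of 7 macrophage markers at 5.59 to 6.11 in the combination arm, 5.76 to 6.16 in the IL-6 arm, 5.49 to 6.08 in the HGF arm and 5.59 to 6.14 in unstimulated cells. Of those 7, the combination raised 0 and lowered 2, IL-6 raised 4 (Adgre1, Marco, Cd5l and Vsig4, the last by 1.16 at 24 h) and lowered Cd68 (-0.90 at 4 h), and HGF raised 1 and lowered 3. Of 6 sinusoidal endothelial markers the combination raised 1 and lowered 3, IL-6 raised 2 and lowered 1, and HGF lowered 6. Of 4 cholangiocyte markers the combination raised 2 and lowered 1, IL-6 raised 2 and lowered 1, and HGF raised 3, 2 of them by 2-fold. Of 7 stellate cell and fibroblast markers 6 were above the filter, and the combination raised 1, IL-6 raised 1 and lowered 1, and HGF raised 1 and lowered 1; of 6 lymphocyte and neutrophil markers Cd3e and Cd79a were above it, and neither passed with any stimulus. Raised and lowered here mean passing the F-test over 7 hours described below. Of all genes, 68% passed it with the combination, 55.1% with IL-6, 62.6% with HGF and 75% in unstimulated culture. By at least 2-fold the shares were 5.77%, 2.6%, 3.58% and 12.9%. The part of these markers in the results below was not tested. Fewer cells of a type and less RNA per cell cannot be told apart in such samples.

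The control transcripts added to the samples divide the arrays. The 3' minus 5' signal of the labelling control dap was 2.46 to 3.99 on the 42 stimulated arrays and 2.47 to 2.80 on the unstimulated arrays of 8 to 32 h, against 1.18 to 1.52 on the 10 unstimulated arrays of 0 to 4 h. Differences between stimulated and unstimulated cells at 0.5 to 4 h therefore cross a labelling class, while those at 8 to 32 h and those between stimuli do not; unstimulated cells at 8 to 32 h against 0 h cross it as well. The highest value, 3.99, belonged to 1 IL-6 array at 24 h. The hybridisation control bioB differed between arms too, at 5.38 to 6.03 in the combination, 5.51 to 7.21 in IL-6, 5.94 to 8.47 in HGF and 8.13 to 8.53 in unstimulated cells, and of the stimulated groups only HGF at 0.5 h (8.36 and 8.47) lay within the unstimulated range.

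Nfkbiz, Bcl3 and Zfp36 had the largest responses among the members, and had them in both arms with IL-6. Relative to unstimulated cells, IL-6 plus HGF changed 9 of the 9 measured genes (F-test over 7 hours, adjusted p below 0.05), with 8 higher and Tnfaip3 lower at the hour of its largest difference; of all 14513 genes, 68% passed, 31.3% higher and 36.7% lower. IL-6 alone also changed 9, 7 of them higher, where 55.1% of all genes passed (23.4% higher, 31.7% lower), and HGF alone changed 9, 6 of them higher, where 62.6% passed (29.8% higher, 32.8% lower). As most genes passed, the size of a change says more here than its call. By the stricter rule of at least 2-fold at the hour of the largest difference, Nfkbiz, Bcl3 and Zfp36 passed with the combination (5.77% of all genes) and with IL-6 (2.6%), and 0 members passed with HGF (3.58%). Over 8 to 32 h alone, 9 members passed with the combination (57.2% of all genes), 9 with IL-6 (42%) and 8 with HGF (55.1%). The median over the 9 members at the hour of the largest difference was 0.64 with the combination, 0.50 with IL-6 and 0.23 with HGF, and over all genes -0.14, -0.10 and -0.08. In these signed medians rises and falls offset each other. By size alone the member medians were 0.64, 0.57 and 0.37, and those over all genes 0.36, 0.29 and 0.33. The 3 comparisons share the unstimulated arrays. Hour by hour, and with the share of all genes beside it, the combination changed 5 of 9 members at 0.5 h (29.1%), 6 at 2 h (35.4%), 6 at 4 h (43.1%), 7 at 8 h (33.5%), 8 at 16 h (41.1%), 6 at 24 h (35.7%) and 7 at 32 h (33.5%). IL-6 changed 5 of 9 members at 0.5 h (19.3%), 6 at 2 h (25.7%), 6 at 4 h (29.8%), 7 at 8 h (17.6%), 7 at 16 h (25.6%), 6 at 24 h (24.8%) and 7 at 32 h (24.3%). HGF changed 5 of 9 members at 0.5 h (20.2%), 3 at 2 h (31.1%), 5 at 4 h (34.1%), 6 at 8 h (29.4%), 6 at 16 h (38.4%), 3 at 24 h (33.9%) and 3 at 32 h (25.3%). With the combination the count was highest at 16 h, where 8 members passed and all 8 were higher.

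**Figure D1:**
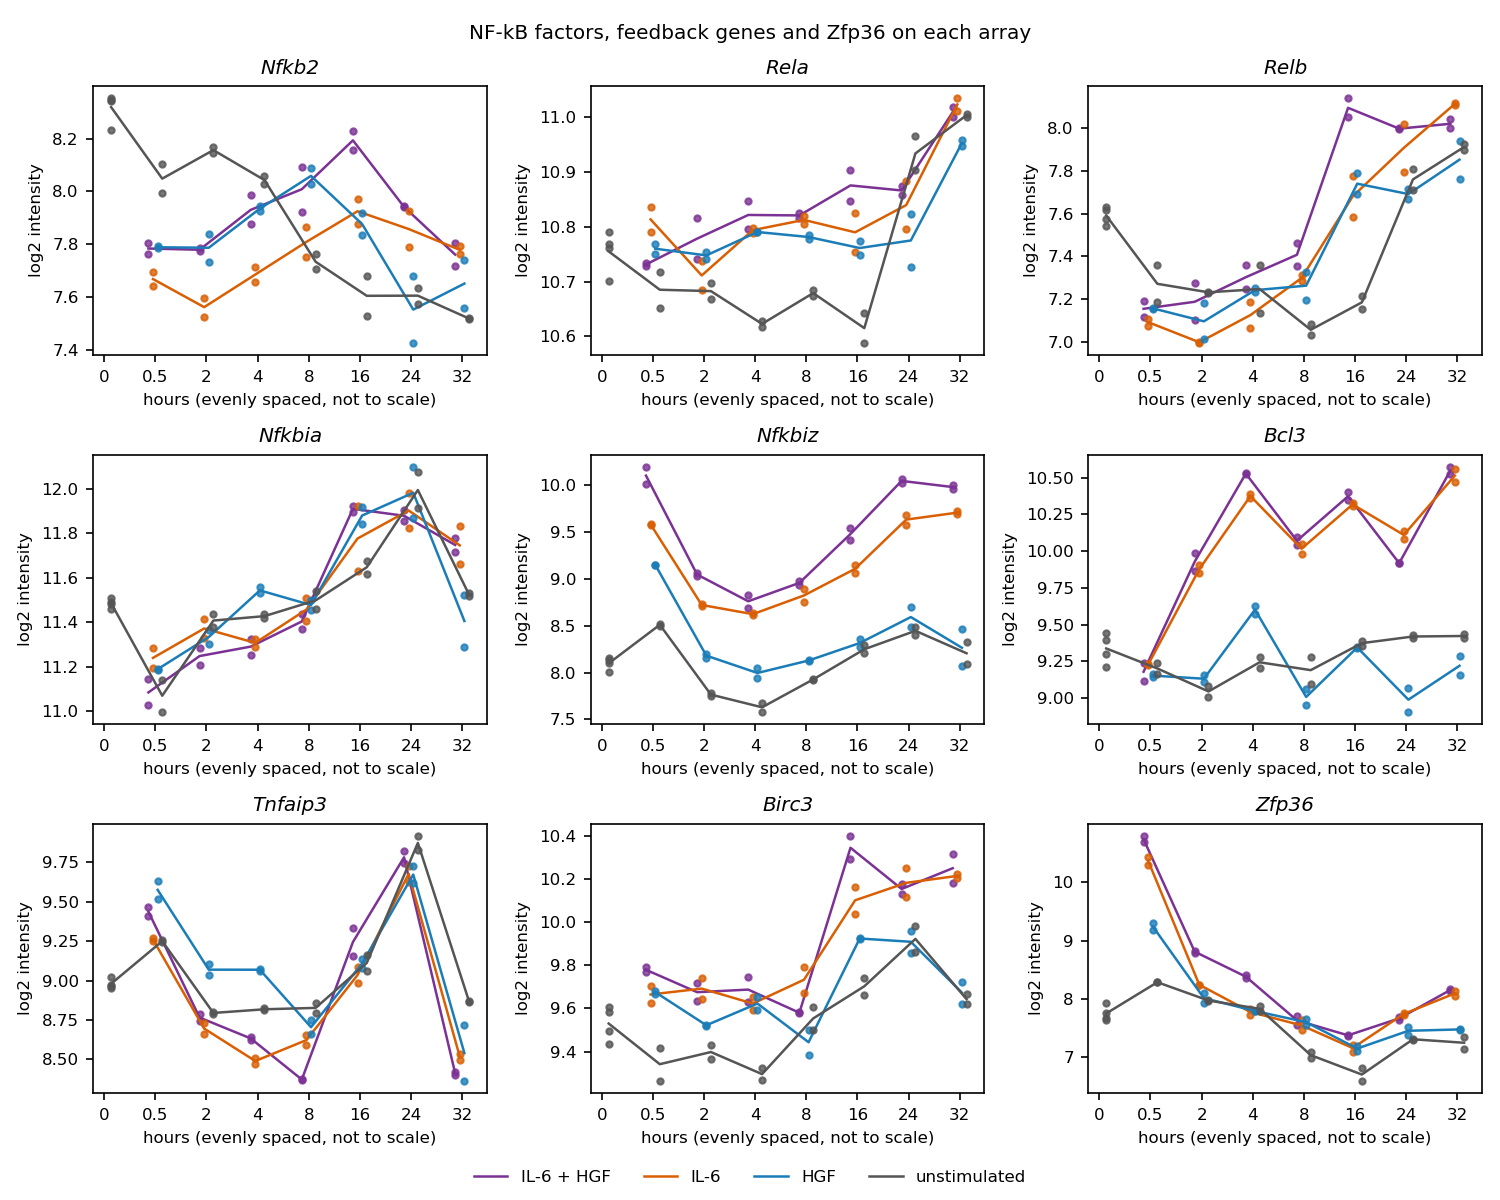
Log2 intensity of the 9 measured genes on every array (points) and the mean of each group (lines) against hours after stimulation, evenly spaced and not to scale, for IL-6 plus HGF, IL-6, HGF and unstimulated cells. Bcl3 and Nfkbiz separate the 2 arms with IL-6 from the others from 2 h on, and Zfp36 is highest at 0.5 h in every stimulated arm.

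**Figure D2:**
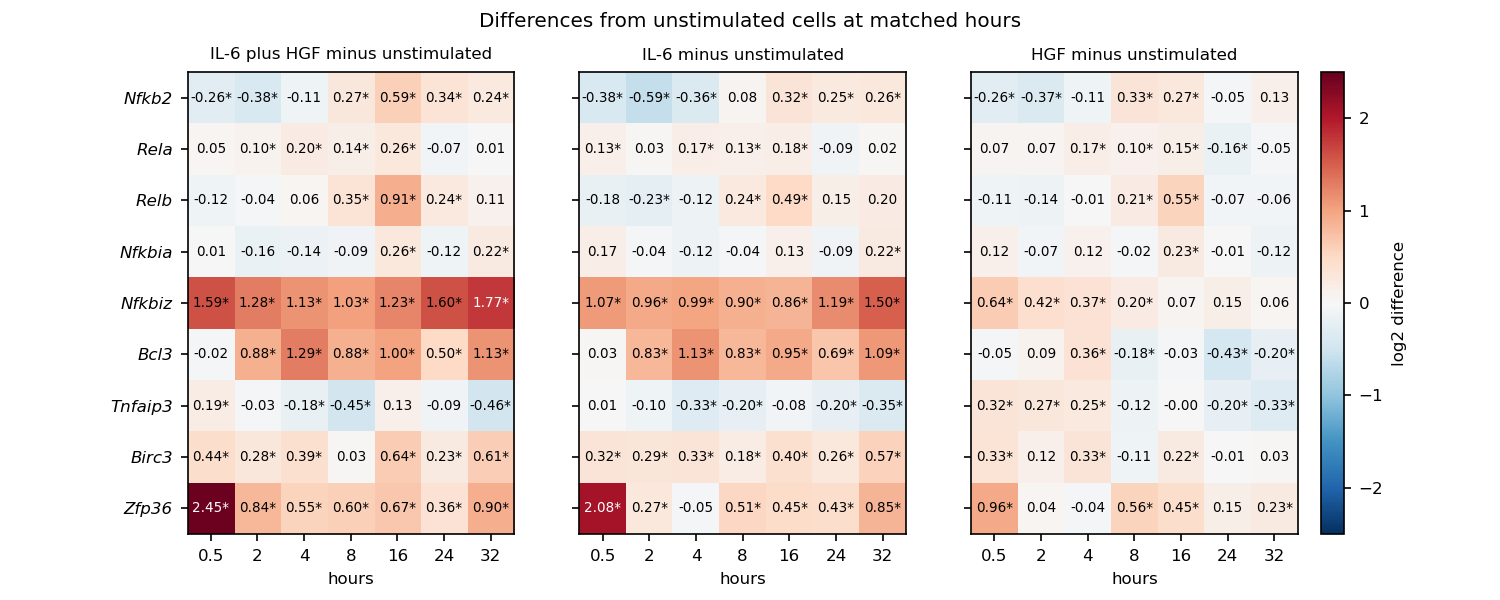
Log2 difference from unstimulated cells at the same hour for each gene (rows) and hour (columns), with an asterisk where the adjusted p at that hour was below 0.05. The largest values are those of Zfp36 at 0.5 h, 2.45 with IL-6 plus HGF, 2.08 with IL-6 and 0.96 with HGF.

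Promoter sequences are shown for 3 genes that behaved differently: Bcl3, higher with IL-6 from 2 h on, Zfp36, highest at 0.5 h, and Nfkbia, the standard NF-kB target, with smaller differences. RefSeq's table of starts on GRCm38.p6, from 250 bases before to 50 after the start, held 10 entries for 7 of the 10 genes and none for Nfkb1, Relb and Nfkbiz. Searched on both strands were the kB decamer, the STAT motif TTCNNNGAA, the AP-1 motif TGANTCA and the CArG box of serum response factor, which 8.46%, 8.3%, 7.81% and 1.63% of 32851 promoters held; the first and the last allow alternative bases, and neighbouring kB matches can overlap. The 3 printed windows lie on the minus strand and are written 5′ to 3′ along the gene, with matches in capitals: a kB decamer from base 3 after the start in Bcl3, a CArG box from base -58 and a STAT motif from base -17 in Zfp36, and a kB decamer from base -29 in Nfkbia.
Bcl3, chr7:19822706-19823005: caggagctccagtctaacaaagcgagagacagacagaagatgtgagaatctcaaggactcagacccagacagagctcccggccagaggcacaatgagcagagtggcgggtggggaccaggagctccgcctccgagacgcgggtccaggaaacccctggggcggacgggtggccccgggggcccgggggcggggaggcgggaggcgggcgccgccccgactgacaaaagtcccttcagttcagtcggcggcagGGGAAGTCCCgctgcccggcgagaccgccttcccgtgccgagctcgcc
Zfp36, chr7:28379179-28379478: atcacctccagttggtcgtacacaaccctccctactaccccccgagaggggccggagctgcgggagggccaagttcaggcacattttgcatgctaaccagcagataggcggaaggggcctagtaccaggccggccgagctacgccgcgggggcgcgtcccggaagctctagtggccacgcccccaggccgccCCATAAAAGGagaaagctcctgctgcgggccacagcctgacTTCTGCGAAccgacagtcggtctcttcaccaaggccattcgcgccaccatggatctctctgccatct
Nfkbia, chr12:55492598-55492897: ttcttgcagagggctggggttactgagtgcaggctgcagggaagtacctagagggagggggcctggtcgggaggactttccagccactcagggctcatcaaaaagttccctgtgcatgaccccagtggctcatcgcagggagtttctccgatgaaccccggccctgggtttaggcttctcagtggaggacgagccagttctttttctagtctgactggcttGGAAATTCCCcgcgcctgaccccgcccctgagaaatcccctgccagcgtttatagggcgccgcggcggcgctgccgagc
Nfkb2 held a kB decamer in each of its 3 entries, with a STAT motif at base -148 in 1 and an AP-1 motif at base -210 in another, and Tnfaip3 held 2 of them and an AP-1 motif in 1 of its 2 entries. The Nfkb2 entries that begin at chr19:46305445 and chr19:46305680 overlap and share 1 decamer, the only one in the latter. The windows of Rela and Birc3 and the other window of Tnfaip3 held none of the 4 motifs. A match of letters is a description of the window and shows no binding.

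Nfkbiz encodes IkB zeta, a nuclear member of the IkB family that works with NF-kB dimers at a subset of target genes and is itself strongly induced in mouse macrophages by Toll-like receptor and IL-1 signals. At 0.5 h it stood at 10.19 and 10.01 in the combination arm, 9.58 and 9.59 with IL-6, 9.15 and 9.15 with HGF, and 8.50 and 8.52 in unstimulated cells. The 4 arms did not overlap, and they lay in the order combination, IL-6, HGF, unstimulated. At 32 h the values were 9.95 and 10.01 with the combination, 9.69 and 9.72 with IL-6, 8.46 and 8.07 with HGF, and 8.09 and 8.32 in unstimulated cells, so that the HGF and unstimulated arrays overlapped while both arms with IL-6 stayed above them.

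Relative to unstimulated cells Nfkbiz was higher at 7 of 7 hours with the combination and with IL-6. The differences were largest at 32 h, 1.77 ± 0.08 (SE of the fit, adjusted p = 2.3e-23) with the combination and 1.50 ± 0.08 (adjusted p = 1.8e-20) with IL-6, or 3.42-fold and 2.83-fold, and smallest at 8 h with the combination (1.03) and at 16 h with IL-6 (0.86). HGF alone raised Nfkbiz by 0.64, 0.42 and 0.37 at 0.5, 2 and 4 h and by 0.20 at 8 h, and its differences at 16, 24 and 32 h were 0.07, 0.15 and 0.06 and did not pass. Within the arms the gene dipped after 0.5 h: the step to 2 h was -1.06 in the combination, -0.86 with IL-6, -0.97 with HGF and -0.75 in unstimulated cells, and 24.1%, 12.4%, 12.3% and 5.15% of all genes passed that step. By 24 h it had climbed again in both arms with IL-6, with steps from 8 to 16 h and from 16 to 24 h of 0.52 and 0.57 in the combination and 0.28 and 0.53 with IL-6. The other 2 probe sets of Nfkbiz followed the chosen one over the group means (r = 0.97 and 0.91) and gave 1.47 and 1.29 for IL-6 at 32 h, but 0.19 and -0.01 for HGF at 0.5 h.

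Bcl3 encodes another nuclear IkB protein, known as a partner of p50 and p52 homodimers, with which it can raise or repress transcription. At 0.5 h its arrays read 9.24 and 9.12 in the combination, 9.22 and 9.23 with IL-6, 9.14 and 9.16 with HGF, and 9.24 and 9.17 in unstimulated cells, and none of the 3 differences from unstimulated cells passed. At 4 h the values were 10.53 and 10.53 with the combination, 10.36 and 10.39 with IL-6, 9.57 and 9.63 with HGF, and 9.28 and 9.21 in unstimulated cells. From 2 h to 32 h both arrays of either arm with IL-6 lay above the unstimulated pair at every hour.

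The rise at 4 h was 1.29 ± 0.06 (adjusted p = 5.7e-22, 2.44-fold) with the combination and 1.13 ± 0.06 (adjusted p = 1.6e-19, 2.19-fold) with IL-6. With HGF alone Bcl3 was higher at 4 h (0.36) and lower at 8, 24 and 32 h, by -0.18, -0.43 and -0.20. The course was a zigzag in all 3 stimulated arms: after 4 h it fell at 8 h, rose at 16 h, fell at 24 h and rose at 32 h, and each of these 4 steps passed in each arm. In the combination arm the steps were -0.46, 0.30, -0.46 and 0.63, with IL-6 -0.36, 0.30, -0.21 and 0.40, and with HGF -0.59, 0.34, -0.36 and 0.23. In unstimulated cells only the step from 8 to 16 h (0.18) passed among these 4. Of all genes, 23.7%, 36.3%, 28.1% and 39.7% passed these steps in the combination, 10.6%, 20.3%, 32.9% and 40.1% with IL-6, 10.4%, 31.6%, 29.6% and 37% with HGF, and 28.8%, 19.4%, 35.5% and 39.3% in unstimulated cells. Bcl3 has 1 probe set here, so no second reading of the zigzag exists. Between 4 and 8 h, across the labelling classes, the unstimulated change of Bcl3 minus the mean change of the stimulated arms was 0.42. The unstimulated change itself was -0.05 and did not pass, beside the falls given above in the stimulated arms. Over all genes the median size of that step was 0.15 and its 95th percentile 0.50.

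Among the DNA-binding subunits, Relb and Nfkb2 moved and Rela barely did. Relb encodes the subunit that pairs with p52, the product of Nfkb2, in the slower branch of the pathway. At 16 h Relb read 8.14 and 8.05 in the combination, 7.78 and 7.58 with IL-6, 7.79 and 7.69 with HGF, and 7.22 and 7.15 in unstimulated cells. All stimulated arrays were above the unstimulated pair, the 2 single stimuli overlapped each other, and the combination was above both. The rises were 0.91 ± 0.08 with the combination (adjusted p = 3e-13), 0.50 ± 0.08 with IL-6 (adjusted p = 3e-06) and 0.55 ± 0.08 with HGF (adjusted p = 1.5e-07).

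In the stimulated arms Relb climbed between 8 and 16 h, by 0.69 with the combination, 0.38 with IL-6 and 0.48 with HGF, and IL-6 stepped up further by 0.23 to 24 h and 0.21 to 32 h (adjusted p = 0.025 and 0.036). Unstimulated cells climbed between 16 and 24 h, by 0.57. At 24 h the difference from unstimulated cells was 0.24 with the combination and passed, and 0.15 with IL-6 and -0.07 with HGF did not pass. At 32 h the 3 differences were 0.11, 0.20 and -0.06 and none passed.

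Nfkb2 at 16 h read 8.16 and 8.23 in the combination, 7.88 and 7.97 with IL-6, 7.83 and 7.92 with HGF, and 7.68 and 7.53 in unstimulated cells, with no stimulated array as low as either unstimulated one. The differences were 0.59 ± 0.07 (adjusted p = 3e-09), 0.32 and 0.27, in the same order, and all 3 passed. At 2 h the sign was the other way: 7.78 and 7.77 in the combination, 7.53 and 7.60 with IL-6 and 7.84 and 7.73 with HGF, against 8.17 and 8.14 in unstimulated cells, differences of -0.38, -0.59 and -0.37. Those early values cross the labelling classes. Between 4 and 8 h, the unstimulated change of Nfkb2 minus the mean change of the stimulated arms was -0.42. Labelling, time in culture and response cannot be told apart in that value. A second probe set of Nfkb2 (r = 0.30 with the chosen one) gave -0.18 for HGF and -0.02 for IL-6 at 2 h, and 0.28 for the combination at 16 h.

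Rela encodes p65, the main activating subunit. It was the steadiest of the 9 genes, with group means that spanned 0.41 over all 29 groups, against 4.03 for Zfp36. Its largest difference from unstimulated cells was 0.26 ± 0.04 at 16 h with the combination (adjusted p = 2.2e-07), where the arrays read 10.90 and 10.85, against 10.64 and 10.59 in unstimulated cells. At 24 h and 32 h it was between -0.16 and 0.02 in the 3 stimulated arms, and HGF at 24 h (-0.16) passed.

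Nfkbia, a classical rapid target of NF-kB, differed from unstimulated cells by at most 0.26 in size on its brightest probe set. At 0.5 h it read 11.02 and 11.14 in the combination, 11.28 and 11.19 with IL-6, 11.19 and 11.19 with HGF, and 11.14 and 11.00 in unstimulated cells. The differences of 0.01, 0.17 and 0.12 did not pass. Over all hours, 4 of 21 differences from unstimulated cells passed: 0.26 at 16 h and 0.22 at 32 h with the combination, 0.22 at 32 h with IL-6 and 0.23 at 16 h with HGF. Its 4 other probe sets gave 0.15 to 0.44 for the combination at 16 h. The mean over all 5 gave further calls, all of them lower and across the labelling classes: -0.28 at 2 h and -0.31 at 4 h with the combination (adjusted p = 0.0012 and 0.00027), -0.27 and -0.32 with IL-6 (adjusted p = 0.0026 and 0.00037), and -0.20 at 2 h with HGF (adjusted p = 0.023).

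On its brighter probe set, Tnfaip3 was higher with HGF and lower with IL-6 at 4 h. It encodes A20, described above. At that hour it read 8.64 and 8.62 in the combination, 8.51 and 8.47 with IL-6, 9.06 and 9.07 with HGF, and 8.82 and 8.81 in unstimulated cells. HGF lay above the unstimulated pair and both arms with IL-6 below it, without overlap. The differences were -0.18, -0.33 ± 0.07 (adjusted p = 9e-05) and 0.25 ± 0.07 (adjusted p = 0.0019), all of which passed. HGF had raised it by 0.32 and 0.27 at 0.5 and 2 h as well, across the labelling classes. Under the mean over both probe sets the HGF differences at 0.5, 2 and 4 h were -0.0005, 0.08 and 0.03, and none passed (adjusted p = 0.999, 0.53 and 0.84), while IL-6 at 4 h was -0.38 (adjusted p = 0.00020). IL-6 minus HGF, which does not cross them, was -0.32, -0.37 and -0.58 at 0.5, 2 and 4 h, and between -0.08 and 0.00 from 8 h on, where none passed. At 0.5 to 4 h bioB was 7.03 to 7.21 with IL-6 and 6.21 to 8.47 with HGF, and its part was not tested.

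At 32 h Tnfaip3 was lower in all stimulated arms, at 8.42 and 8.40 with the combination, 8.50 and 8.54 with IL-6 and 8.72 and 8.36 with HGF, against 8.87 and 8.87 in unstimulated cells. The differences were -0.46, -0.35 and -0.33 and passed. The HGF value was -0.51 without the first HGF array of that hour and -0.15 without the second. Under the mean over both probe sets the combination passed (-0.28), and IL-6 (-0.19, adjusted p = 0.067) and HGF (-0.17, adjusted p = 0.12) did not. A second, dimmer probe set of Tnfaip3 (mean 5.64 against 9.01) correlated with the chosen one at r = 0.60 over the group means and gave -0.10, -0.03 and -0.01 at 32 h, and -0.23 for IL-6 minus HGF at 4 h.

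Birc3 encodes cIAP2, a ubiquitin ligase of the TNF receptor complex that favours survival. With IL-6 it was higher at 7 of 7 hours, by 0.18 to 0.57, and with the combination at 6 of 7, by 0.23 to 0.64, the exception being 8 h (0.03). At 32 h it read 10.18 and 10.32 in the combination, 10.20 and 10.23 with IL-6, 9.62 and 9.73 with HGF, and 9.67 and 9.62 in unstimulated cells. Both arms with IL-6 lay above the other 2 arms, which overlapped. The differences were 0.61 ± 0.06 (adjusted p = 4.9e-11), 0.57 ± 0.06 (adjusted p = 4.5e-10) and 0.03, which did not pass. HGF raised Birc3 at 0.5, 4 and 16 h, by 0.33, 0.33 and 0.22. The differences from unstimulated cells at 0.5 to 4 h cross the labelling classes. Between 4 and 8 h, the unstimulated change of Birc3 minus the mean change of the stimulated arms was 0.32. Labelling, time in culture and response cannot be told apart in that value. A dim second probe set (mean 4.31, r = 0.20 with the chosen one) gave 0.43 for IL-6 at 32 h and 0.02 for the combination at 16 h, where the chosen one gave 0.64. For HGF at 0.5 h it gave -0.04.

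Zfp36 encodes tristetraprolin, which binds AU-rich elements in mRNAs such as that of TNF and leads them to deadenylation and decay. At 0.5 h it read 10.79 and 10.69 with the combination, 10.30 and 10.43 with IL-6, 9.19 and 9.30 with HGF, and 8.28 and 8.29 in unstimulated cells, 4 separate levels. The rises were 2.45 ± 0.08 (adjusted p = 2.1e-27, 5.47-fold), 2.08 ± 0.08 (adjusted p = 2.1e-24, 4.23-fold) and 0.96 ± 0.08 (adjusted p = 4.1e-12, 1.94-fold). Between 4 and 8 h, the unstimulated change of Zfp36 minus the mean change of the stimulated arms was -0.40. Labelling, time in culture and response cannot be told apart in it.

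The peak of Zfp36 at 0.5 h was followed by a step down. From 0.5 to 2 h the step was -1.93 with the combination, -2.12 with IL-6, -1.23 with HGF and -0.31 in unstimulated cells, and all 4 passed. At 4 h it read 8.41 and 8.35 with the combination, 7.72 and 7.83 with IL-6, 7.80 and 7.79 with HGF, and 7.79 and 7.87 in unstimulated cells, so that only the combination stayed clear of the unstimulated pair (0.55), and -0.05 with IL-6 and -0.04 with HGF did not pass. From 8 to 32 h Zfp36 was higher than in unstimulated cells at every hour with the combination and with IL-6, and with HGF at every hour but 24 h (0.15). At 32 h it was higher by 0.90 with the combination, 0.85 with IL-6 and 0.23 with HGF. At that hour the arrays read 8.17 and 8.14, 8.06 and 8.13, and 7.47 and 7.49 in these arms, and 7.36 and 7.14 in unstimulated cells.

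Direct comparison of the 2 stimuli gave differences in both directions. IL-6 minus HGF passed for 8 of 9 members, 7 higher and Tnfaip3 lower at the hour of the largest difference, where 51.2% of all genes passed (22.3% higher, 28.9% lower), and Rela did not pass (adjusted p = 0.29). Among the 7, Nfkb2 was lower at 2, 4 and 8 h and higher at 24 h, and Nfkbia lower at 4 h and higher at 32 h. Leaving out single arrays gave 5 to 7 members higher, with 5 without the first 32 h array of HGF. At least 2-fold were again Nfkbiz (1.44 at 32 h), Bcl3 (1.30 at 32 h) and Zfp36 (1.12 at 0.5 h), all higher with IL-6, where 2.83% of all genes passed that rule. At 0.5 h bioB was 7.08 and 7.03 with IL-6 and 8.47 and 8.36 with HGF. At 32 h it was 5.72 and 5.65 with IL-6 and 6.98 and 6.94 with HGF, and its part was not tested. Bcl3 ranked 41st and Nfkbiz 121st of 14513 genes by the F-test. Over 8 to 32 h, 7 members passed (50.1% of all genes). By hour, IL-6 and HGF differed for 3 of 9 members at 0.5 h (0.338%), 4 at 2 h (8.51%), 5 at 4 h (13.6%), 4 at 8 h (20.7%), 3 at 16 h (28.5%), 6 at 24 h (32.9%) and 6 at 32 h (25.2%). At 24 h, when bioB was alike on IL-6 (6.03 and 5.93) and HGF (6.08 and 5.94) arrays, Bcl3 read 10.14 and 10.09 with IL-6, against 8.91 and 9.07 with HGF, and Nfkbiz 9.69 and 9.58, against 8.70 and 8.49. The first IL-6 value of each pair belongs to the array with the dap value of 3.99, and without it the gap to both HGF arrays stays for both genes.

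**Figure D3:**
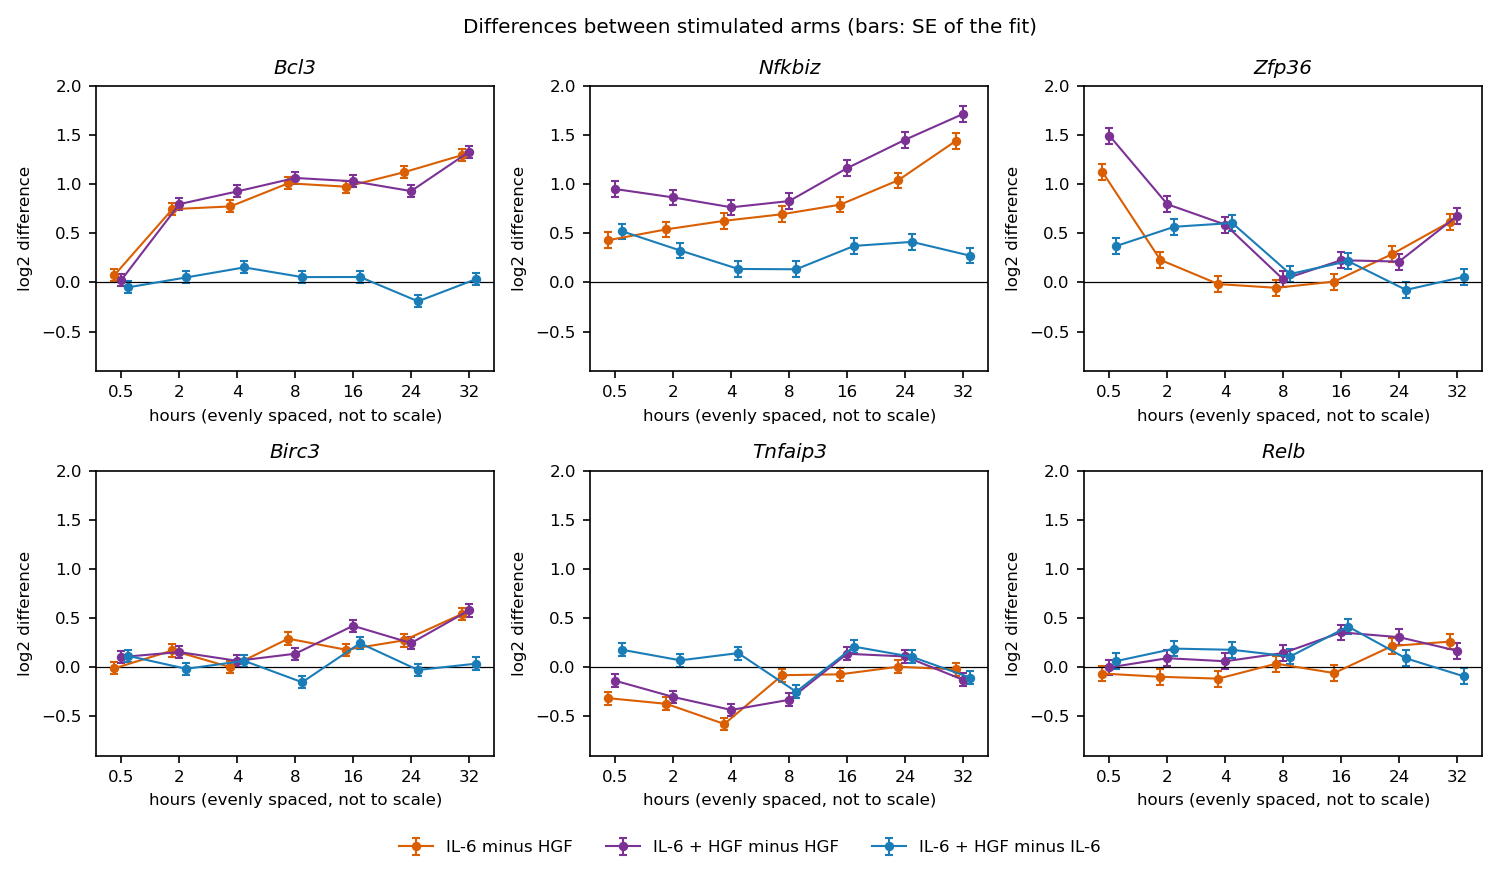
Log2 differences between stimulated arms against hours (evenly spaced, not to scale) for 6 genes, with bars for the standard error of the fit: IL-6 minus HGF, IL-6 plus HGF minus HGF, and IL-6 plus HGF minus IL-6. For Bcl3 the first 2 lines lie together, at up to 1.30 and 1.33, and the third lies near 0.

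Adding IL-6 to HGF changed 9 of 9 members, 8 of them higher, where 41.6% of all genes passed (17.7% higher, 23.9% lower), and the same 3 genes by at least 2-fold (1.83%). The largest differences of IL-6 plus HGF from HGF were 1.72 for Nfkbiz and 1.33 for Bcl3, both at 32 h, and 1.49 for Zfp36 at 0.5 h. At 0.5 h bioB was 5.83 and 6.005 in the combination and 8.47 and 8.36 with HGF. At 32 h it was 5.63 and 5.38 in the combination and 6.98 and 6.94 with HGF, and its part was not tested. Rela, at 0.11, passed only just (adjusted p = 0.043), and did not pass in 22 of 28 omissions of a single array. Adding HGF to IL-6 changed 7 of 9 members, 5 of them higher, where 44.1% passed (23.2% higher, 20.9% lower), and 0 by 2-fold (1.1%), while Rela and Nfkbia did not pass (adjusted p = 0.15 and 0.20). Over 8 to 32 h, 9 members passed for IL-6 added to HGF (37% of all genes) and 5 for HGF added to IL-6 (34.6%). IL-6 added to HGF changed 2 of 9 members at 0.5 h (0.296%), 4 at 2 h (6.16%), 5 at 4 h (14.6%), 3 at 8 h (14.7%), 7 at 16 h (15.8%), 5 at 24 h (19.9%) and 5 at 32 h (21.9%). HGF added to IL-6 changed 2 of 9 members at 0.5 h (4.62%), 3 at 2 h (8.57%), 2 at 4 h (13.3%), 1 at 8 h (13.3%), 5 at 16 h (18.3%), 2 at 24 h (17.5%) and 1 at 32 h (13%).

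HGF added most to Zfp36 and Nfkbiz. For Zfp36 the combination minus IL-6 was 0.37, 0.57 and 0.61 at 0.5, 2 and 4 h (adjusted p = 0.0078, 2e-06 and 2.9e-07). At these hours bioB was 5.70 to 6.03 in the combination and 7.03 to 7.21 with IL-6, and its part in the difference was not tested. For Nfkbiz it was 0.52, 0.32, 0.37, 0.41 and 0.27 at 0.5, 2, 16, 24 and 32 h, which passed, and 0.14 and 0.13 at 4 and 8 h, which did not, though at all 7 hours both combination arrays were above both IL-6 arrays. For Bcl3 the same difference passed at 24 h alone, and was negative there (-0.19). The F-test call of Bcl3 (adjusted p = 0.039) was lost in 10 of 28 omissions of a single array and over 8 to 32 h alone (adjusted p = 0.075). At 16 h, when bioB was alike in the combination (5.68 and 5.93) and IL-6 (5.51 and 5.92), HGF added 0.41 to Relb, 0.27 to Nfkb2, 0.24 to Birc3, 0.21 to Tnfaip3 and 0.37 to Nfkbiz. The largest difference of Tnfaip3 was the other way, -0.25 at 8 h, where its dimmer probe set gave 0.19. At 8 h bioB was 5.47 and 5.87 in the combination and 7.05 and 7.05 with IL-6.

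Whether the 2 stimuli added up was tested on the log2 scale, where adding differences multiplies folds. Addition of the intensities themselves was not tested. The IL-6 effect in cells without HGF was subtracted from the IL-6 effect in cells with it. This departure passed for 6 of 9 members, all positive at the hour of the largest departure, where 33.6% of all genes passed (18.9% positive, 14.6% negative), and 0 reached 2-fold (1.15%). Over 8 to 32 h, 5 members passed (19.7%). Single hours gave departures for 2 of 9 members at 0.5 h (7.74%), 2 at 2 h (11.5%), 3 at 4 h (12.6%), 1 at 8 h (2.48%), 0 at 16 h (9.96%), 2 at 24 h (7.84%) and 0 at 32 h (6.24%). Zfp36 departed in both directions: -0.59 at 0.5 h, where 2.45 was measured and the single differences sum to 3.04, 0.53 and 0.64 at 2 and 4 h, and -0.48 at 8 h. Nfkb2 departed by 0.38, 0.59 and 0.35 at 0.5 to 4 h, hours that cross the labelling classes, and by -0.15 to 0.14 later, which did not pass. Rela (0.19) and Tnfaip3 (0.31) departed at 24 h. Nfkbiz and Bcl3 passed the F-test (adjusted p = 0.024 and 0.0058) but at no single hour, with largest departures of 0.31 at 16 h and 0.24 at 24 h. Relb, Nfkbia and Birc3 did not pass the F-test, though Birc3 passed at 4 h (-0.26).

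**Figure D4:**
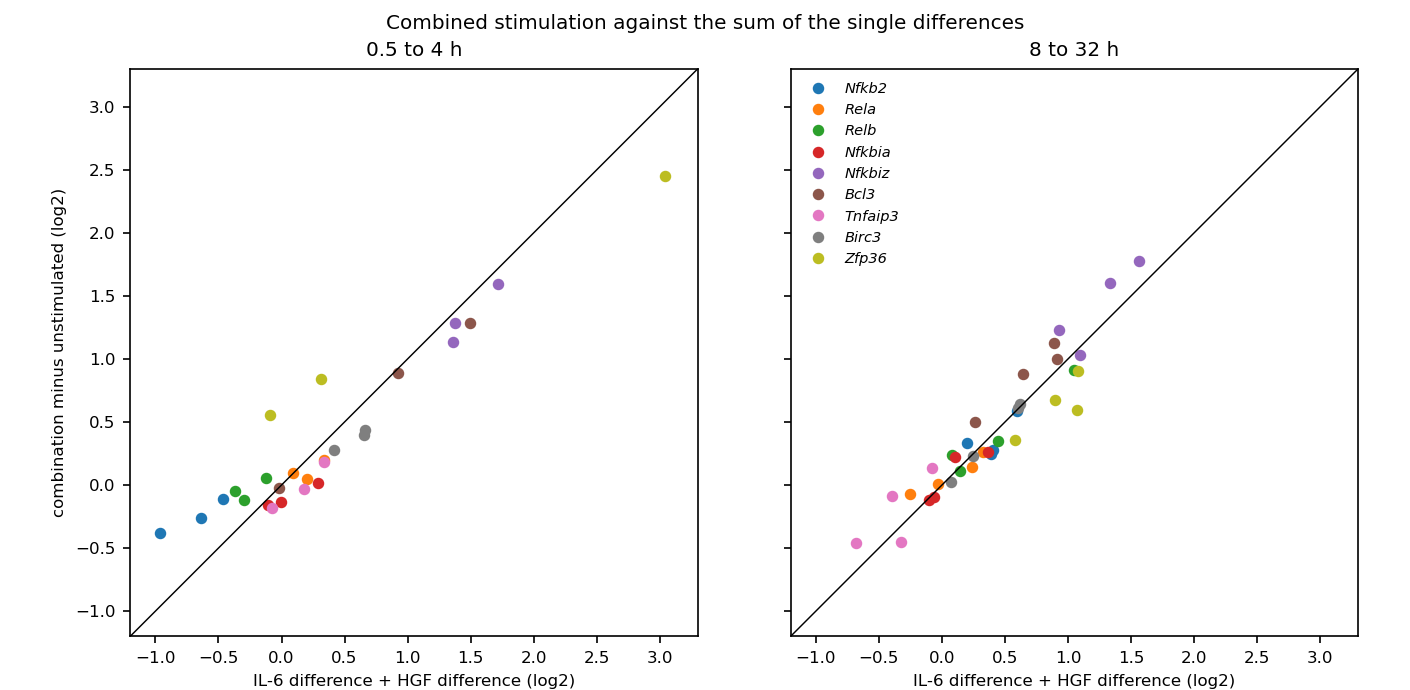
Log2 difference of IL-6 plus HGF from unstimulated cells against the sum of the IL-6 and HGF differences, 1 point per gene and hour, at 0.5 to 4 h (left) and 8 to 32 h (right); on the diagonal the 2 are equal. Zfp36 at 0.5 h lies below it, at 2.45 against 3.04, and Zfp36 at 2 and 4 h above it.

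Time in culture alone moved these genes too. Unstimulated hours against 0 h passed for 9 of 9 members, 4 higher and 5 lower, where 75% of all genes passed (40.4% higher, 34.6% lower), and Zfp36 was lower by at least 2-fold (12.9%). Over 8 to 32 h, 9 passed (75.2%). Against 0 h, culture changed 7 of 9 members at 0.5 h (3.38%), 5 at 2 h (12.7%), 6 at 4 h (14.1%), 6 at 8 h (37.1%), 6 at 16 h (45.9%), 8 at 24 h (58.9%) and 4 at 32 h (67.7%). The hours from 8 h on cross the labelling classes. Zfp36 read 8.28 and 8.29 at 0.5 h, against 7.68, 7.75, 7.94 and 7.64 at 0 h, a rise of 0.53 without any added stimulus. At 16 h it read 6.81 and 6.60, a difference of -1.05. Nfkb2 was lower at every later hour, although 2 h did not pass, and read 7.52 and 7.52 at 32 h, against 8.35, 8.35, 8.34 and 8.23 at 0 h, a difference of -0.80 ± 0.06 (adjusted p = 1.1e-15). Nfkbia differed by -0.42 at 0.5 h and by 0.51 at 24 h.

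Tnfaip3 showed a peak at 24 h that all arms shared. It read 9.74 and 9.82 with the combination, 9.73 and 9.63 with IL-6, 9.72 and 9.62 with HGF, and 9.83 and 9.92 in unstimulated cells, the last 0.89 ± 0.06 above 0 h (adjusted p = 2e-18). The steps from 16 to 24 h, within 1 labelling class, were 0.54, 0.64, 0.56 and 0.76 in these arms, and those from 24 to 32 h were -1.37, -1.16, -1.13 and -1.003, all passing. The dimmer second probe set did not show this peak, at -0.00 for unstimulated cells at 24 h against 0 h.

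Around the members, receptors and adaptors that feed NF-kB changed in both directions. For the counts here and in the lists below, the shares of all genes were 31.3% higher and 36.7% lower with the combination. With IL-6 they were 23.4% and 31.7%, and with HGF 29.8% and 32.8%. Of 19 measured receptors and adaptors, the combination raised 10 and lowered 8, IL-6 raised 7 and lowered 8, and HGF raised 7 and lowered 6, with list medians of 0.22, -0.06 and 0.10, beside -0.14, -0.10 and -0.08 over all genes. The clearest with IL-6 were Il1r1, the signalling receptor for IL-1 (1.76 ± 0.11 at 4 h), Myd88, its adaptor (1.15 ± 0.07 at 32 h), and Tnfrsf1a, the main TNF receptor (0.71 ± 0.05 at 32 h). With HGF, Ltbr was lower (-0.61 at 4 h), as was Tlr2 (-0.56 at 8 h), and Myd88 was higher (0.43 at 32 h).

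Of 6 remaining Rel and IkB genes, the combination raised 3 and lowered 1, IL-6 raised 2 and lowered 1, and HGF raised 2 and lowered 2. Nfkbie, the inhibitor IkB epsilon, was 0.92 ± 0.12 higher with IL-6 at 32 h and 1.24 ± 0.12 higher with IL-6 than with HGF at 24 h. Rel, the c-Rel subunit, was 0.80 ± 0.11 higher with HGF at 2 h, across the labelling classes. Nfkbib, the inhibitor IkB beta, was lower by -0.73, -0.60 and -0.65 at 0.5 h in the 3 arms, an hour that crosses the labelling classes, and higher by 0.27, 0.17 and 0.24 at 8 h, which does not.

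Among 10 genes of the IKK complex, its upstream kinases and their partners, the combination raised 7 and lowered 3. IL-6 raised 7 and lowered 2, and HGF raised 5 and lowered 4. Map3k8, the kinase TPL2, was 1.24 ± 0.15 higher with IL-6 at 24 h, Ikbke 1.33 ± 0.09 higher with the combination at 16 h, and Ikbkg, the regulatory subunit NEMO, lower with each stimulus, by -0.64 with the combination, -0.48 with IL-6 and -0.57 with HGF. Of 14 ubiquitin editors and survival partners, the combination raised 5 and lowered 9, IL-6 raised 7 and lowered 6, and HGF raised 5 and lowered 8. Birc2, the close relative of Birc3, differed by -0.90 ± 0.06 with HGF at 24 h and was 1.12 ± 0.06 higher with IL-6 than with HGF at 32 h.

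Genes that control mRNA decay in either direction, Zfp36 aside, rose more often than they fell. Of 20 measured, the combination raised 17 and lowered 2, IL-6 raised 12 and lowered 4, and HGF raised 14 and lowered 5. List medians were 0.36, 0.23 and 0.31, beside -0.14, -0.10 and -0.08 over all genes. Btg2, which recruits deadenylases, reached 1.21 ± 0.06 with the combination at 2 h, 0.71 with IL-6 at 4 h and 0.75 with HGF at 0.5 h. Zfp36l1, a relative of Zfp36, reached 0.81 with the combination and 0.48 with IL-6, both at 2 h. Over 8 to 32 h, within 1 labelling class, the combination raised 11 and lowered 5, IL-6 raised 7 and lowered 1, and HGF raised 7 and lowered 6. Of all genes, 57.2%, 42% and 55.1% passed over those hours.

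Textbook NF-kB targets split. Of 26 measured, the combination raised 13 and lowered 8, IL-6 raised 14 and lowered 7, and HGF raised 10 and lowered 12, with list medians of 0.42, 0.38 and -0.00. By at least 2-fold the combination raised 9 and lowered 3, IL-6 raised 8 and lowered 1, and HGF raised 7 and lowered 1. Of all genes, 5.77%, 2.6% and 3.58% passed that rule. Ier3, an early survival gene, reached 1.68 with the combination, 1.31 with IL-6 and 1.33 with HGF, all at 2 h. Icam1, an adhesion molecule, was 1.63 ± 0.06 higher with IL-6 at 32 h, and Sod2, the mitochondrial superoxide dismutase, 0.97 ± 0.04 higher at 24 h. Cxcl10, a chemokine, was 2.42 ± 0.15 higher with the combination than with IL-6 at 4 h. The gp130 response itself was large: Socs3, the STAT3 target that restrains gp130, was 5.56 higher with the combination and 5.42 with IL-6 at 0.5 h, and 0.92 with HGF at 2 h.

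To find genes with a like pattern, each gene's 28 group means (4 arms, 7 hours) were correlated. They were first centred on the mean of the 4 arms at each hour. The points share arrays and scaling, so these r values are descriptions. The unstimulated means at 0.5 to 4 h belong to the other labelling class, and its part in r was not tested. Most like Bcl3 were Osmr (r = 0.97), Arrdc4 (0.97) and Tnfrsf1a (0.96), and most like Nfkbiz were Socs3 (0.95), Fosl2 (0.95) and Mrpl52 (0.94). For Birc3 they were Smad5, Fosl2 and Pik3c2a (each 0.91), for Nfkb2 Pea15a (0.90), Rps6kc1 (0.89) and Bcl2l1 (0.88), and for Relb Uggt1 (0.88), Calu (0.88) and Zfp598 (0.86). Zfp36 was nearest to Gcc1 (0.81), 1700029P11Rik (0.78) and Socs3 (0.75), Rela to Ice1 (0.84), Znrf1 (0.82) and Spata2 (0.80), Tnfaip3 to Slc25a46 (0.83), Dennd4c (0.82) and Tfcp2l1 (0.81), and Nfkbia to Rnf146 (0.71), Tada2a (0.70) and Zfp592 (0.67). Among the members themselves the closest pairs were Nfkbiz with Birc3 (0.90), Nfkbiz with Bcl3 (0.86), Bcl3 with Birc3 (0.82) and Nfkb2 with Relb (0.81), and the most opposed were Bcl3 and Tnfaip3 (-0.51).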

How the data were processed

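RNA of primary mouse hepatocytes was labelled with biotin and hybridised to Affymetrix Mouse430_2 arrays, per the labels' protocols. The deposited values are log2 intensities, 45101 per array on 60 arrays; no source used here gives their summarisation or scaling. Medians per array were 4.88 to 4.97, with no further scaling. Triplicates are named in the series' design, while 2 arrays per group were analysed, which limits the precision. Of the probe sets, 34958 carry 1 gene symbol in GEO's platform annotation; 932 with several and 9211 not listed with a gene were left out. The members and gene lists were chosen with earlier results of these data known.

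With limma 3.58.1 (R 4.3.3), each group received its own mean, and eBayes used a variance trend with 31 residual degrees of freedom. Each of 8 comparisons was an F-test over 7 hours, Benjamini-Hochberg adjusted over 14513 genes at 0.05, and single hours were adjusted over genes within the hour. Named beside the members are the 3 genes per list with the smallest adjusted p in a comparison, or some of them, and the 3 genes most like each member. The macrophage markers named and the hours given for Nfkbib were picked after their values were seen. Alternatives were quantile normalization, median centring, other filters, the mean over probe sets, the compared arms alone, a replicate block, other variance models, 8 to 32 h alone and leaving out each array. The fit was tested on simulated data. Promoters come from RefSeq (GRCm38.p6).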

Additional observations from a re-analysis of the deposited data

Results flagged for a closer look

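One of the 4 unstimulated arrays at 0 h stood apart for Nfkb2: the gap to its nearest neighbour was 0.91 of the whole range (8.23 against 8.34 to 8.35). Chance marks about 1 in 20 such groups.

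The effect of IL-6 differed between cells with and without HGF for 6 members, by the F-test of that difference. At the hour of its largest value the effect with HGF minus that without was 0.59 for Nfkb2 at 2 h, 0.64 for Zfp36 at 4 h, 0.31 for Nfkbiz at 16 h, 0.19 for Rela, 0.24 for Bcl3 and 0.31 for Tnfaip3, the last 3 at 24 h. The values of Nfkb2 and Zfp36 include unstimulated arrays of the other labelling class; the part of that class in them was not tested.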

How the results depend on the processing

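Quantile normalization, median centring, other filters, the mean over a gene's probe sets, the compared arms alone, other variance models and leaving out each array left the number of members called by the F-test over 7 hours within 1.5 times in all 8 comparisons. The departure from additivity over 8 to 32 h passed for 3 members, not 5, under quantile normalization, under the mean over probe sets and without the variance trend, and for 3 to 5 when single arrays were left out (3 without the second 24 h array of the combination, IL-6 or HGF); all genes called for it numbered 2862 over 8 to 32 h, not 4872 over 7 hours. Under the mean over probe sets, HGF added to IL-6 gave 8 member calls over single hours, not 16, and 2 members over 8 to 32 h, not 5. That setting also turned the sign of Tnfaip3 at 0.5 h with the combination (-0.023) and HGF (-0.0005), and, against 0 h, of Nfkbia at 8 h (-0.15) and Tnfaip3 at 16 h (-0.18), since it averages in the probe sets that differ. With 8 to 32 h alone, the hour of the largest difference is another one, and its sign differs: for IL-6, Nfkb2 0.32; for HGF, Nfkb2 0.33 and Rela -0.16; for the departure, Nfkb2 -0.15 and Zfp36 -0.48; against 0 h, Nfkbiz 0.35. Leaving out single arrays gave 0 to 1 members of at least 2-fold with HGF (1 without the first 0.5 h HGF array) and 0 to 1 against 0 h (0 without the third 0 h or the second 16 h unstimulated array). The causes were not tested beyond this.

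The replicate numbers do not pair the arrays: over 378 pairs of groups, residuals of same-numbered arrays correlated at -0.27 to 0.25. With a replicate block the members called over 7 hours were 9, 9 and 9 for the combination, IL-6 and HGF against unstimulated cells, and all genes called with HGF were 9092, not 9082. The call of Rela for IL-6 added to HGF (adjusted p = 0.043) was lost with no filter, with the compared arms alone, under other variance models and in 22 of 28 omissions of a single array. That of Bcl3 for HGF added to IL-6 (adjusted p = 0.039) was lost without the variance trend and in 10 of 28 omissions.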
